A study of Mus musculus with 7 samples.

Results

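The 9 genes described here carry Hedgehog signaling between the epithelium and the stroma of the gut: the ligands *Shh* and *Ihh*, the receptor *Ptch1*, the signal transducer *Smo*, the ligand trap *Hhip*, the transcription factors *Gli1*, *Gli2* and *Gli3*, and the mesenchymal factor *Foxl1*. They were chosen by symbol, and each matched 1 of the 43346 genes in the count table. RNA was measured in whole colon tumors of 7 mice, whose strain the labels give as C57BL6/J and which the methods call congenic, differing from the donors in their CD45 allele. Recipients with wild-type *Dnmt3a* had been given bone marrow (BM) after lethal irradiation, 4 of them *Dnmt3a*+/Δ BM, written Dnmt3a(+/-) in the labels, and 3 of them *Dnmt3a*+/+ BM. Donors of both kinds carried *Mx1*-Cre, an interferon-inducible recombinase, and had received poly(I:C), which deleted 1 *Dnmt3a* allele in the floxed donors only. Epithelium, fibroblasts, muscle and vessels of the tumor therefore come from the recipient, and blood cells from the graft. Colitis-associated cancer was then induced in all mice by azoxymethane, injected 1 time at 10 mg/kg, followed by dextran sulfate sodium at 3% in drinking water for 3 cycles. The labels give the recipients as 8 weeks old, and the study's methods give a slightly younger age. The tumors came from 2 transplantation experiments, BMT18 (replicates 1 and 2 of each group) and BMT8 (*Dnmt3a*+/+ replicate 3 and *Dnmt3a*+/Δ replicates 3 and 4).

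Hedgehog proteins are secreted, lipid-modified ligands. In the intestine they are made mainly by epithelial cells and act on the mesenchyme beneath, where a ligand bound to Ptch1 frees Smo from inhibition, and Smo in turn leads Gli proteins to activate target genes. *Gli1*, *Ptch1* and *Hhip* are themselves targets, so their RNA is commonly read as a record of signal received, and Ptch1 and Hhip bind ligand and limit its spread. *Ihh* is the main ligand of differentiated colonocytes, while *Shh* is weak in the normal colon and stronger in stratified squamous epithelium, as in the skin and esophagus.

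Gli proteins recognize the sequence GACCACCCA. It was looked for on both strands of RefSeq promoter windows of 300 bases on GRCm38.p6, which were given for 6 of the 9 genes (*Ihh*, *Gli2*, *Smo*, *Hhip*, *Gli3* and *Ptch1*). None of the 6 held it, nor a match with 1 mismatch. Among 27025 genes with a window, 0.289% held the exact sequence and 7.73% held it with at most 1 mismatch. The 250 bases before the *Ptch1* start (chr13:63565736-63565985, minus strand, a RefSeq start inside the longer GENCODE gene) are shown as part of the searched window of the one gene of the 9 whose 2 groups of tumors did not overlap (given further on). Capitals mark CpG dinucleotides, the substrate of Dnmt3a. No methylation was measured in these tumors, and only blood cells from the *Dnmt3a*+/Δ graft carried the deletion.
Ptch1: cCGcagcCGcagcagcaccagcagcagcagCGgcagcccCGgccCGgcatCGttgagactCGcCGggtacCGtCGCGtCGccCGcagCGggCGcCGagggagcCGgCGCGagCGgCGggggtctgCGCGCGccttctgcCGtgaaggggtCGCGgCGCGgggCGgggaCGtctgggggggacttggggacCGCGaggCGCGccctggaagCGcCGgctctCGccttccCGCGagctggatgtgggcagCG
It holds 41 CpGs, where the median over all windows is 6 and 98.9% of windows hold fewer. The other Hedgehog genes with a window were not counted separately, so the number is not shown to be particular to *Ptch1* among them. 

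Total counts ran from 38472738 to 64314999 per tumor. Values are CPM, counts scaled by library size, on the TMM scale, which also corrects for the composition of each library. The groups were compared with edgeR's quasi-likelihood test over the 15810 genes with enough counts, and a gene was called at a Benjamini-Hochberg adjusted p under 0.05 with an absolute log2 fold change over 1. The test called 0 genes (0%), with a lowest adjusted p of 0.361 and 1744 genes at an unadjusted p under 0.05. DESeq2, which the study itself used with the same thresholds, called 299 (1.83%), none of them among the 9. With 4 tumors against 3, an exact permutation test cannot go below p = 0.0286. Epithelial markers were abundant in every tumor (10 genes summing to between 10816 and 38798 CPM, led by *Krt8*). Markers of stratified squamous epithelium, which the colon lining lacks, were also high. The 9 genes (keratins, *Dsg3* and *Trp63*), led by *Krt13*, summed to 26874 CPM in *Dnmt3a*+/+ replicate 1 and 30338 in *Dnmt3a*+/Δ replicate 1. They summed to between 5139 and 5624 CPM in 4 other tumors, and to 272 CPM in *Dnmt3a*+/Δ replicate 2. That last tumor also stood apart in its stroma, with 1116 CPM over 11 fibroblast markers (193 to 404 CPM in the other 6 tumors) and 146 CPM over 8 endothelial markers (17.2 to 69.2). Results that rest on it are given with and without it. In whole tumors, fewer cells of a type and less RNA per cell cannot be told apart.

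**Figure D1:**
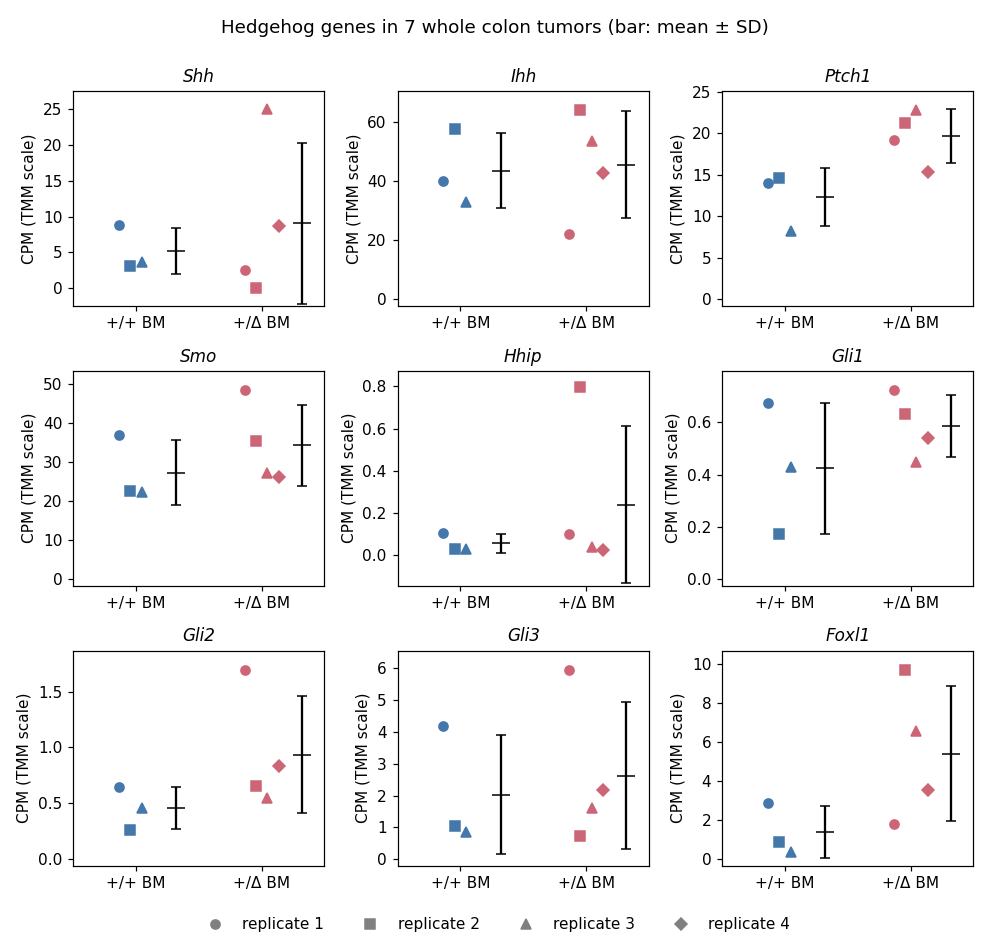
CPM on the TMM scale of the 9 genes in each of 7 tumors, by graft, with 1 symbol per replicate number and the mean ± SD beside each group (n = 3 and n = 4; each panel has its own axis). *Ptch1* is the one panel without overlap, from 8.26 to 14.6 CPM with *Dnmt3a*+/+ BM and from 15.3 to 22.8 with *Dnmt3a*+/Δ BM, while *Shh* runs from 0 to 25.1 CPM within the *Dnmt3a*+/Δ group.

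Between genes, levels can be compared only per length of transcript. *Ihh* was the most abundant of the 9, with a median of 14.01 CPM per kb of exon over the 7 tumors. *Smo* followed at a median of 4.84 CPM per kb (3.98 to 8.62), and it was below *Ihh* in 6 of 7 tumors. Then came *Shh* (1.29), *Ptch1* (1.08) and *Foxl1* (1.06), medians that lay within the spread between tumors of *Shh* and *Foxl1*. The neighbors *Ptch1* and *Foxl1* could not be put in order, as *Ptch1* was the higher in 3 of 7 tumors. The Gli factors were roughly an order of magnitude lower again, with medians of 0.169 CPM per kb for *Gli3*, 0.108 for *Gli1* and 0.0939 for *Gli2*. *Gli1* was above *Gli2* in 4 of 7 tumors, so these too were not separated. *Hhip* was last at a median of 0.00448 CPM per kb. Per kb, *Ihh* exceeded *Shh* in all 7 tumors, by between 1.99-fold in *Dnmt3a*+/Δ replicate 3 and 17.8-fold in *Dnmt3a*+/+ replicate 2, with no ratio in *Dnmt3a*+/Δ replicate 2, where *Shh* had 0 counts. The ligand *Ihh* also exceeded its receptor *Ptch1* per kb in every tumor, by 13.4-fold to 18.4-fold with *Dnmt3a*+/+ BM and by 5.33-fold to 14.01-fold with *Dnmt3a*+/Δ BM.

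**Figure D2:**
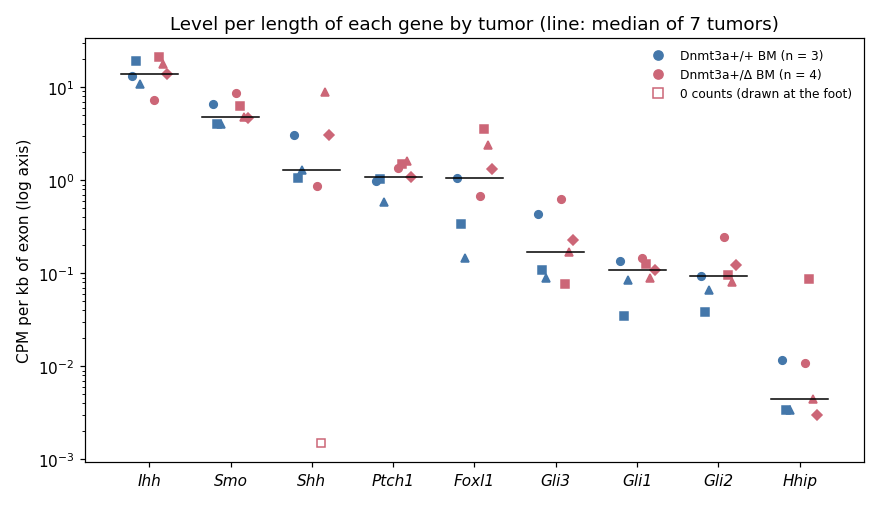
Level of each gene in CPM per kb of exon, on a log axis, with 1 symbol per tumor (blue, *Dnmt3a*+/+ BM; red, *Dnmt3a*+/Δ BM; shapes as replicate numbers 1 to 4) and a line at the median of 7 tumors. Medians fall from 14.01 for *Ihh* to 0.00448 for *Hhip*; the open square is the 0 count of *Shh* in *Dnmt3a*+/Δ replicate 2, drawn at the foot of the axis.

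The epithelial ligands were compared first. *Ihh* (ENSMUSG00000006538, chr1:74945315-74951672 of GRCm38, minus strand) was at 40.1, 57.7 and 32.7 CPM in *Dnmt3a*+/+ replicates 1 to 3 and at 22.0, 64.0, 53.4 and 42.7 CPM in *Dnmt3a*+/Δ replicates 1 to 4. Both the lowest and the highest tumor had received *Dnmt3a*+/Δ BM, so the groups overlapped throughout. The means were 45.5 ± 17.9 CPM (SD, n = 4) and 43.5 ± 12.8 (SD, n = 3), and the log2 fold change, *Dnmt3a*+/Δ over *Dnmt3a*+/+, was 0.07 (SE 0.36, edgeR adjusted p = 0.968; SE is the standard error). Within experiments, the difference of mean log2 CPM was -0.36 in BMT18 and 0.55 in BMT8, and the log2 fold change was -0.11 without *Dnmt3a*+/Δ replicate 2.

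*Shh* (ENSMUSG00000002633, chr5:28456815-28467256, minus strand) varied widely among the *Dnmt3a*+/Δ tumors. Its CPM was 8.81, 3.03 and 3.67 with *Dnmt3a*+/+ BM and 2.50, 0, 25.1 and 8.62 with *Dnmt3a*+/Δ BM. *Dnmt3a*+/Δ replicate 2 had 0 counts among 40732271, which allows up to 0.0611 CPM (3 counts, counting error only), while replicate 3 had 1234 counts, at least 410-fold higher in CPM. The log2 fold change of 0.81 (SE 1.47, edgeR adjusted p = 0.884) was within the spread between tumors. It turned to -0.48 without *Dnmt3a*+/Δ replicate 3 and to -0.91 with the experiment as a covariate, the difference of mean log2 CPM being -3.94 in BMT18 and 1.99 in BMT8. The tumor without *Shh* counts was the tumor with the lowest squamous marker sum (272 CPM). Across the other 6 tumors the order was not shared: *Dnmt3a*+/Δ replicate 1 had the highest squamous sum and the lowest of the 6 *Shh* values, and replicate 3, highest in *Shh*, had a squamous sum of 5624 CPM. The part of squamous tissue in the *Shh* level was not tested. A pair of antisense transcripts overlaps the exons of *Shh*, with 166 counts over the 7 tumors against 2295 for *Shh*.

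The receptor *Ptch1* (ENSMUSG00000021466, chr13:63508328-63573598, minus strand), which is both the brake on Smo and a Gli target, had 13.9, 14.6 and 8.26 CPM with *Dnmt3a*+/+ BM. With *Dnmt3a*+/Δ BM it had 19.2, 21.3, 22.8 and 15.3 CPM. All 4 *Dnmt3a*+/Δ tumors lay above the 3 controls, by a narrow margin between *Dnmt3a*+/Δ replicate 4 and *Dnmt3a*+/+ replicate 2. The means were 19.6 ± 3.26 CPM (SD, n = 4) and 12.3 ± 3.50 (SD, n = 3), 1.60-fold apart. The log2 fold change was 0.68 (SE 0.26, edgeR unadjusted p = 0.0326 and adjusted p = 0.422; two-sided exact permutation p = 0.0571), so *Ptch1* did not pass the test over all genes. DESeq2 gave an adjusted p of 0.256. The difference had the same sign in both experiments (0.50 in BMT18 and 1.17 in BMT8, mean log2 CPM). It was 0.67 without *Dnmt3a*+/Δ replicate 2 and 0.81 without both tumors high in squamous markers, and it ran from 0.46, without *Dnmt3a*+/+ replicate 3, to 0.82, without *Dnmt3a*+/+ replicate 2. Such a separation, with *Dnmt3a*+/Δ BM higher, was found in 6.12% of all genes tested and in 1 of the 8 tested Hedgehog genes, *Ptch1*.

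*Smo* (ENSMUSG00000001761, chr6:29735503-29761365, plus strand), the seven-pass membrane protein that Ptch1 holds inactive, was at 36.8, 22.7 and 22.4 CPM with *Dnmt3a*+/+ BM and at 48.5, 35.2, 27.2 and 26.0 CPM with *Dnmt3a*+/Δ BM. Replicate 1 was the highest of its group in each case. Its log2 fold change was 0.33 (SE 0.29, edgeR adjusted p = 0.704), within the spread between tumors, with 0.51 in BMT18 and 0.25 in BMT8. It was 0.13 without *Dnmt3a*+/Δ replicate 1 and 0.60 without *Dnmt3a*+/+ replicate 1. *Hhip* (ENSMUSG00000064325, chr8:79965851-80058006, minus strand), which sequesters ligand at the cell surface, had 53 counts in all, too few for the edgeR test. *Dnmt3a*+/Δ replicate 2, the tumor highest in fibroblast markers, held 39 of them (73.6%), and no other tumor had more than 4. DESeq2, which tested it, gave a log2 fold change of 2.14 (adjusted p = 0.574), and 0.02 without that tumor.

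Of the Gli factors, *Gli1* (ENSMUSG00000025407, chr10:127329882-127341974, minus strand) is the activator whose own transcription follows the signal. It was close to the limit of detection, with 11 to 31 counts per tumor. Its CPM was 0.672, 0.172 and 0.428 with *Dnmt3a*+/+ BM and 0.724, 0.632, 0.447 and 0.541 with *Dnmt3a*+/Δ BM, and the groups overlapped. On the log2 scale the fold change was 0.48 (SE 0.53, edgeR adjusted p = 0.785), with 0.87 in BMT18 and 0.18 in BMT8. It ran from 0.09 without *Dnmt3a*+/+ replicate 2 to 0.98 without *Dnmt3a*+/+ replicate 1. Exons of *Gli1* overlap those of *Arhgap9* on the other strand by 62 bp (616 counts in all, against 152 for *Gli1*), and whether strand was used in counting is not given in the sources used here.

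*Gli2* (ENSMUSG00000048402, chr1:118834132-119053619, minus strand), the main activator upstream of *Gli1*, was at 0.645, 0.265 and 0.459 CPM with *Dnmt3a*+/+ BM and at 1.70, 0.652, 0.548 and 0.838 CPM with *Dnmt3a*+/Δ BM. Here 3 of 4 *Dnmt3a*+/Δ tumors were above all *Dnmt3a*+/+ tumors, though 1 of the 3 by a small margin. Its counts were low too, from 15 to 68 per tumor. *Gli2* had a log2 fold change of 1.04 (SE 0.56, edgeR unadjusted p = 0.105 and adjusted p = 0.532), and 0.60 without *Dnmt3a*+/Δ replicate 1. Within experiments it was 1.25 in BMT18 and 0.52 in BMT8 (mean log2 CPM). *Gli3* (ENSMUSG00000021318, chr13:15463235-15730026, plus strand), known chiefly as the repressor of the pathway, had 4.19, 1.05 and 0.857 CPM with *Dnmt3a*+/+ BM and 5.96, 0.733, 1.62 and 2.19 CPM with *Dnmt3a*+/Δ BM. Replicate 1 of each graft was far above the rest. These were the tumors with the highest squamous marker sums, and the lowest *Gli3* value was in the tumor with the lowest sum. The log2 fold change of *Gli3* was 0.37 (SE 0.83, edgeR adjusted p = 0.91), -0.42 without *Dnmt3a*+/Δ replicate 1 and 0.68 without both replicates 1. *Smo*, *Gli1* and *Gli2* were also highest of their group in replicate 1. The part of squamous tissue in these levels was not tested.

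**Figure D3:**
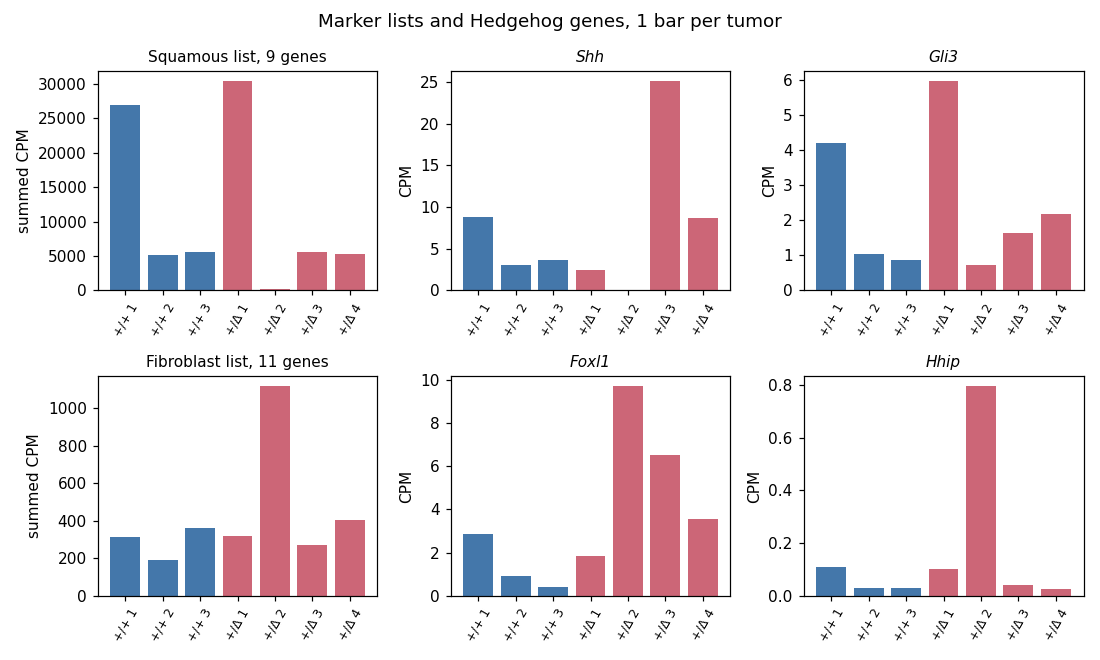
Summed CPM of the squamous (9 genes) and fibroblast (11 genes) marker lists beside CPM of *Shh*, *Gli3*, *Foxl1* and *Hhip*, 1 bar per tumor (blue, *Dnmt3a*+/+ BM; red, *Dnmt3a*+/Δ BM). The squamous sum and *Gli3* are both highest in replicate 1 of each graft (30338 and 26874 CPM for the sum), and the fibroblast sum (1116 CPM), *Foxl1* (9.70 CPM) and *Hhip* (0.795 CPM) are highest in *Dnmt3a*+/Δ replicate 2.

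*Foxl1* (ENSMUSG00000097084, chr8:121127940-121130644, plus strand) marks the mesenchymal cells just under the epithelium, where Hedgehog signaling sustains its transcription. It was at 2.87, 0.906 and 0.398 CPM with *Dnmt3a*+/+ BM and at 1.82, 9.70, 6.54 and 3.54 CPM with *Dnmt3a*+/Δ BM. In 3 of 4 *Dnmt3a*+/Δ tumors it was above all controls, and *Dnmt3a*+/Δ replicate 1 lay below *Dnmt3a*+/+ replicate 1. The means were 5.40 ± 3.46 CPM (SD, n = 4) and 1.39 ± 1.31 (SD, n = 3), 3.88-fold apart. This was the largest log2 fold change of the 8 tested genes, 1.96 (SE 0.81, edgeR unadjusted p = 0.0439 and adjusted p = 0.441; two-sided exact permutation p = 0.114), and DESeq2 gave an adjusted p of 0.14. DESeq2 did call *Foxl1* without *Dnmt3a*+/+ replicate 1 (log2 fold change 3.03, adjusted p = 0.00618) and without *Dnmt3a*+/Δ replicate 1 (2.26, adjusted p = 0.0327), and edgeR did not. Without *Dnmt3a*+/Δ replicate 2 it was 1.55. Its lowest value was 1.53, without *Dnmt3a*+/+ replicate 3, and its highest 3.03, without *Dnmt3a*+/+ replicate 1. Both experiments gave the same sign (1.36 in BMT18 and 3.46 in BMT8, mean log2 CPM). The value in BMT8 rests on 1 *Dnmt3a*+/+ tumor with 13 counts. The gene *Gm20388* overlaps *Foxl1* on the same strand, with 12930 counts over the 7 tumors against 1180 for *Foxl1*. Their exons share 0 bases, and its part in the *Foxl1* values was not tested.

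Over the 9 genes, then, 8 could be tested and 0 were called. At an unadjusted p under 0.05, 2 of the 8 were higher with *Dnmt3a*+/Δ BM, *Ptch1* and *Foxl1*, and 0 were lower, where 5.83% of all genes tested were higher and 5.2% lower. DESeq2 also had 2 of 9 higher, *Ptch1* and *Foxl1*, against 5.55% of all genes. With edgeR the count fell to 0 without *Dnmt3a*+/+ replicate 3, without *Dnmt3a*+/Δ replicate 2 or without *Dnmt3a*+/Δ replicate 3, and to 1 without *Dnmt3a*+/+ replicate 2, *Dnmt3a*+/Δ replicate 1 or *Dnmt3a*+/Δ replicate 4. With DESeq2 it fell to 1 without each of the first 3 and stayed at 2 without each of the others. All 8 log2 fold changes were above 0 (50.2% of all genes tested were), from 0.07 for *Ihh* to 1.96 for *Foxl1*, with a median of 0.58, and of 1.17 without *Dnmt3a*+/+ replicate 1. Of the 8, 7 were above 0 without *Dnmt3a*+/Δ replicate 1 or replicate 2, and 6 without *Dnmt3a*+/+ replicate 3, without *Dnmt3a*+/Δ replicate 3 and in BMT18 alone. Epithelial markers lay the other way, with 9 of 10 log2 fold changes below 0 and a median of -0.57. By edgeR's unadjusted test 1 of the 10 was lower and 1 higher under 0.05, and 7 were lower with the experiment as a term. The shares of 5.83% and 5.2% over all genes belong to the fit without that term. The part of stroma and epithelium in the Hedgehog values was not tested. The interaction of graft with experiment was not significant for any of the 8 (adjusted p = 1.00 at the lowest, edgeR), with 1 *Dnmt3a*+/+ tumor in BMT8.

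The ligand was then set against stromal receptor and targets across the 7 tumors, as log2 CPM, in 8 relations with exact permutation over all pairings. *Ihh* had a Pearson r of 0.30 with *Ptch1* (exact two-sided p = 0.507, Spearman rho 0.43, p = 0.354), of -0.44 with *Gli1* (exact p = 0.321, rho -0.39, p = 0.396), of 0.29 with *Hhip* (exact p = 0.50, rho 0.21, p = 0.661) and of 0.47 with *Foxl1* (exact p = 0.289, rho 0.57, p = 0.20). The Pearson p adjusted over the 8 relations was 0.514 or 0.569 for each of the 8, and the lowest adjusted Spearman p was 0.711. Without the tumors farthest from the median of *Ihh*, *Dnmt3a*+/Δ replicates 1 and 2, r was 0.79, -0.60, -0.16 and 0.43 in the same order. With a single tumor left out, r of *Ihh* with *Ptch1* ran from 0.09, without *Dnmt3a*+/+ replicate 3, to 0.83, without *Dnmt3a*+/Δ replicate 1 (exact two-sided p = 0.0417, 0.333 adjusted over the 8 relations). The fibroblast level had r = 0.24 with *Ptch1* (exact p = 0.569, rho 0.07, p = 0.906), 0.55 with *Gli1* (exact p = 0.201, rho 0.36, p = 0.444), 0.85 with *Hhip* (exact p = 0.0716, rho 0.07, p = 0.906) and 0.54 with *Foxl1* (exact p = 0.204, rho 0.36, p = 0.444). All of these were below 0 without both *Dnmt3a*+/+ replicate 2 and *Dnmt3a*+/Δ replicate 2 (-0.59, -0.06, -0.45 and -0.43). Without *Dnmt3a*+/Δ replicate 2 alone they were -0.28, 0.76, 0.06 and 0.09 in the same order. Without *Dnmt3a*+/+ replicate 2 alone they were 0.22, 0.23, 0.86 and 0.44. With all 7 tumors no relation was past the threshold, and the 4 and 3 tumors of the experiments are too few for values within each.

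The genes most like *Ihh* over the 7 tumors, among 15809 other genes, were *Nek5* (r = 0.98), *Akap2* (0.97) and *Hist1h2be* (0.96), out of 23 genes with r of at least 0.9. *Akap2* ran from 23.6 CPM in *Dnmt3a*+/Δ replicate 1 to 51.1 in replicate 2, the same lowest and highest tumors as for *Ihh*. For *Gli1* they were *Hspa2* (0.97), *Cib2* (0.97) and *Kcnip3* (0.97), out of 45. *Hspa2* was lowest in *Dnmt3a*+/+ replicate 2 (9.70 CPM) and highest in *Dnmt3a*+/Δ replicate 1 (25.6 CPM), as was *Gli1*. With 7 tumors, r values of this size arise among many genes. Between members, *Gli1* was closest to *Gli2* (r = 0.83) and *Smo* (0.75), and *Ihh* to *Foxl1* (0.47) and *Ptch1* (0.30). With the other tested members *Ihh* had an r below 0: -0.68 with *Gli2*, -0.68 with *Gli3*, -0.46 with *Smo*, -0.44 with *Gli1* and -0.27 with *Shh*.

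Further pathway genes were taken from lists. Of 35 genes for ligand release, coreceptors and cytoplasmic transduction, 31 were tested and edgeR called 0. DESeq2 gave an adjusted p for all but *Scube2* and *Lrp2*, and it called *Scube1*. At an unadjusted p under 0.05 from edgeR, 5 had a higher level with *Dnmt3a*+/Δ BM (5.83% of all genes tested did) and 0 a lower one. The 5 became 3 without *Dnmt3a*+/+ replicate 2, *Dnmt3a*+/Δ replicate 2 or *Dnmt3a*+/Δ replicate 3. The median log2 fold change was 0.17, against 0.003 over all genes tested, with 22 genes above 0 and 9 below. It was 0.078 without *Dnmt3a*+/Δ replicate 1, with 17 above and 14 below. Without *Dnmt3a*+/+ replicate 1, where *Dhh* had enough counts to be tested too, it was 0.37. With library sizes alone the median over all genes moved by 0.21. Under that scaling 8 of the 31 were higher at an unadjusted p under 0.05, as were 1687 of the 15810 genes tested.

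Among coreceptors, *Gas1*, a membrane-anchored coreceptor that promotes ligand binding, was at 5.10, 2.08 and 1.19 CPM with *Dnmt3a*+/+ BM and at 7.11, 11.9, 9.18 and 3.87 CPM with *Dnmt3a*+/Δ BM. Its log2 fold change was 1.52 (SE 0.59, edgeR unadjusted p = 0.033 and adjusted p = 0.422), with overlap between *Dnmt3a*+/Δ replicate 4 and *Dnmt3a*+/+ replicate 1. The coreceptors *Cdon* and *Boc* had log2 fold changes of 0.12 and 0.13 with edgeR adjusted p of 0.933 and 0.922.

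For ligand release, *Disp1*, the transporter that frees lipid-modified ligand from the producing cell, was at 3.63 to 5.38 CPM with *Dnmt3a*+/+ BM and at 5.84 to 14.3 CPM with *Dnmt3a*+/Δ BM. Its log2 fold change of 0.90 (SE 0.37, edgeR adjusted p = 0.435) was 0.60 without *Dnmt3a*+/Δ replicate 2. *Scube1*, of a family of secreted proteins that take part in ligand release, was at 1.88, 1.94 and 3.61 CPM with *Dnmt3a*+/+ BM and at 4.49, 22.3, 7.82 and 6.73 CPM with *Dnmt3a*+/Δ BM, without overlap. It had a log2 fold change of 2.07 (SE 0.62, edgeR adjusted p = 0.377, 0.024 from DESeq2), and 1.39 without *Dnmt3a*+/Δ replicate 2. DESeq2 no longer called *Scube1* without *Dnmt3a*+/+ replicate 1 or 2, or without *Dnmt3a*+/Δ replicate 2 or 3. Endothelial markers, a list of 8 genes, did not overlap between groups either (17.2 to 29.7 CPM with *Dnmt3a*+/+ BM and 29.9 to 146 CPM with *Dnmt3a*+/Δ BM), and *Scube1* is also known from endothelium. Their part in its level was not tested. *Dhh*, the third ligand, known from Schwann cells and endothelium, was too low for the edgeR test over all tumors. It had 0.108, 0.0781 and 0.153 CPM in the controls and 0.0998, 1.43, 0.264 and 0.189 CPM in *Dnmt3a*+/Δ replicates 1 to 4.

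In the cytoplasm, *Sufu*, the chief inhibitor of Gli proteins, had a log2 fold change of 0.36 (SE 0.23, edgeR adjusted p = 0.593). *Iqce*, which holds the Evc complex at the base of the primary cilium, was at 5.99, 4.39 and 5.35 CPM with *Dnmt3a*+/+ BM and at 9.13, 10.5, 8.45 and 7.92 CPM with *Dnmt3a*+/Δ BM. All *Dnmt3a*+/Δ tumors were above the controls, with a log2 fold change of 0.78 (SE 0.24, edgeR unadjusted p = 0.0121 and adjusted p = 0.383; two-sided exact permutation p = 0.0286), and 0.72 without *Dnmt3a*+/Δ replicate 2. DESeq2 gave an adjusted p of 0.0339, at a fold change under the threshold. Over the 31 tested genes of these lists, 5 had no overlap with *Dnmt3a*+/Δ BM higher (*Disp1*, *Scube1*, *Stk36* and *Iqce* among them) and 1 with it lower (*Mgrn1*), against 6.12% and 6.32% of all genes tested. *Stk36* and *Mgrn1* were picked out by this count, after their values were seen.

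**Figure D4:**
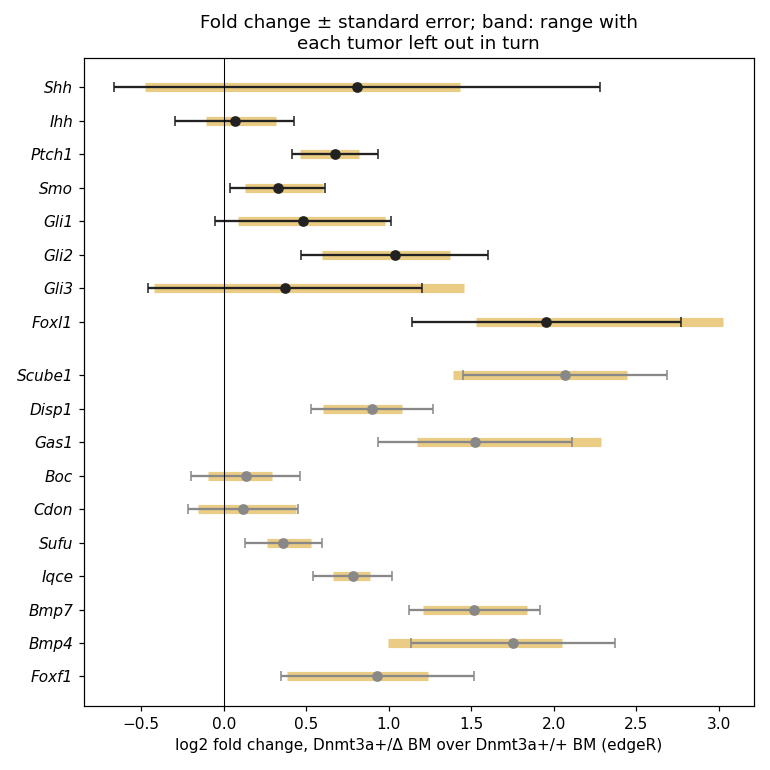
Log2 fold change, *Dnmt3a*+/Δ BM over *Dnmt3a*+/+ BM, with standard error from edgeR (4 tumors against 3), for the 8 tested Hedgehog genes (black) and further genes of the pathway and its targets (gray); bands show the range with each tumor left out in turn. *Ihh* sits at 0.07, *Ptch1* at 0.68 with a band from 0.46 to 0.82, and among the 8 the bands of *Shh*, *Ihh* and *Gli3* cross 0.

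Of 16 genes listed as Hedgehog targets in mesenchyme or tumors, 15 were tested and edgeR called 0. DESeq2 gave an adjusted p for all but *Nkx3-2*, and it called *Bmp7*. With edgeR there were 2 higher and 0 lower at an unadjusted p under 0.05 (5.83% and 5.2% of all genes). The 2 became 1 without *Dnmt3a*+/+ replicate 1 or replicate 2 and 5 without *Dnmt3a*+/Δ replicate 1. The shares over all genes given here are those with all 7 tumors. The median log2 fold change was 0.46. *Bmp4*, a secreted signal of the subepithelial mesenchyme, was at 2.93, 2.34 and 3.27 CPM with *Dnmt3a*+/+ BM and at 3.74, 21.7, 5.95 and 6.95 CPM with *Dnmt3a*+/Δ BM, without overlap. Its log2 fold change of 1.75 (SE 0.62, edgeR adjusted p = 0.406) was 0.99 without *Dnmt3a*+/Δ replicate 2, whose level was far above the others. *Bmp7*, a ligand of the same family, was at 14.1, 6.07 and 9.97 CPM against 22.0, 46.9, 24.8 and 21.4 CPM, also without overlap, with a log2 fold change of 1.52 (SE 0.40, edgeR unadjusted p = 0.00543 and adjusted p = 0.361, 0.0174 from DESeq2). DESeq2 no longer called *Bmp7* without *Dnmt3a*+/+ replicate 2, *Dnmt3a*+/Δ replicate 2 or *Dnmt3a*+/Δ replicate 3. Without *Dnmt3a*+/Δ replicate 2 its log2 fold change from edgeR was 1.21. *Foxf1*, a forkhead factor of gut mesenchyme, had a log2 fold change of 0.93 (SE 0.58, edgeR adjusted p = 0.583), and 0.39 without that tumor.

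Of the other markers, those of smooth muscle ran from 23.4 CPM in *Dnmt3a*+/+ replicate 3 to 1222 CPM in *Dnmt3a*+/Δ replicate 3 (8 genes), and those of leukocytes from 35.4 to 166 CPM (6 genes), with overlap between groups. Fibroblast markers overlapped as well (two-sided exact permutation p = 0.4 for the summed level, 10 of 11 genes with a higher mean with *Dnmt3a*+/Δ BM). The list of neurons and glia (7 genes) was at 5.96 to 8.87 CPM with *Dnmt3a*+/+ BM and 13.2 to 37.0 CPM with *Dnmt3a*+/Δ BM, nearly all of it *Ret* (4.97 to 35.2 CPM). Urothelial markers (4 genes) summed to 8.54 to 10.9 CPM with *Dnmt3a*+/+ BM and 5.12 to 6.15 CPM with *Dnmt3a*+/Δ BM, a sum led by *Upk1a* (means of 8.41 and 2.48 CPM), while the other 3 genes had higher means with *Dnmt3a*+/Δ BM. Those of mesothelium (4 genes) were nearly all *Msln* (3.60 to 112 CPM), and *Wt1* was at 0 in every tumor.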

How the data were processed

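Polyadenylated RNA of 7 whole colon tumors was sequenced from directional libraries. Per the study's methods, the authors trimmed reads with Trimmomatic, aligned them with STAR 2.7.3a to mm10 (build 38) and estimated counts per gene with RSEM 1.2.31. The deposited values are these expected counts as whole numbers, without normalization. The annotation release is not given in the sources used here. Columns were matched to tumors by the mouse number in the labels. GENCODE M21 (GRCm38) gave symbols, positions and exon lengths, and 42462 of 43346 identifiers had a symbol. Counts without a symbol were 0.104% of the total. Level per length used the union of exons.

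Differences between grafts were tested by edgeR 4.0.16 under R 4.3.3 (filterByExpr, TMM, quasi-likelihood test, Benjamini-Hochberg over all genes tested), without covariates. DESeq2 1.42.0, another scaling, no filter, a term for the experiment, a block on replicate number, BMT18 alone and leaving out each tumor were alternatives. Leaving out both tumors high in squamous markers, and DESeq2 with a tumor left out, were added after the data were seen. Log2 CPM used a prior count of 2. Exact permutation tests took the absolute difference of mean log2 CPM over the 35 splits of 7 tumors.

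The 9 genes and the lists were chosen with earlier results of these data known. Named beside the 9 were *Dhh*, *Sufu*, *Boc*, *Cdon*, *Gas1*, *Foxf1* and *Bmp4*, up to 3 genes per list with the lowest unadjusted p under 0.05, and the 3 genes most like *Ihh* and *Gli1*. A gene that this rule names is not reported here. Both tests were tested on simulated data with known changes.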

Additional observations from a re-analysis of the deposited data

Results flagged for a closer look

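Within the 4 *Dnmt3a*+/Δ tumors, 60 genes (the 9 Hedgehog genes and the other pathway and target genes) were examined for a tumor whose gap to its nearest neighbor took most of the range of the group (Dixon's ratio above its critical value). This held for 8 genes, where chance gives about 1 in 20, or 3, if values are normally distributed. The ratio was taken on CPM without logs, so the 8 cannot be read as more than chance gives. In 7 of the 8 the tumor was *Dnmt3a*+/Δ replicate 2, each time the highest. Its CPM was 0.795 for *Hhip*, 1.43 for *Dhh*, 1.49 for *Scube3*, 1.93 for *Stk36*, 18.21 for *Bmp5*, 46.9 for *Bmp7* and 0.0408 for *Nkx3-2*. The last is a gene with at most 2 counts. For *Evc*, a membrane protein of the cilium, it was replicate 1, at 7.36 CPM. The 7 values come from 1 tumor and are not independent. Its library held 40732271 counts. It had the highest fibroblast (1116 CPM), endothelial (146 CPM) and leukocyte (166 CPM) marker sums and the lowest epithelial sum (10816 CPM). The part of these in the 7 values was not tested.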

How the results depend on the processing

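With edgeR, 0 genes were called under every alternative, and DESeq2 called 299, and with a tumor left out 231, 63 and 444 (*Dnmt3a*+/+ replicates 1 to 3) or 695, 171, 201 and 263 (*Dnmt3a*+/Δ replicates 1 to 4). The 2 Hedgehog genes higher at an unadjusted p under 0.05 became 0 in BMT18 alone, 1 without both tumors highest in squamous markers (*Foxl1*), 0 to 2 with edgeR and 1 or 2 with DESeq2 with a tumor left out. *Ptch1*, *Smo*, *Gli1*, *Gli2* and *Foxl1* stayed above 0 in all of these. The log2 fold change of *Shh* was -0.91 with the experiment as a term, -2.25 in BMT18 alone and -0.48 to 1.43 with a tumor left out. *Ihh* was at -0.16 in BMT18 alone and at -0.11 to 0.32 with a tumor left out, and *Gli3* at -0.42 to 1.46. With a tumor left out, the correlation of *Ihh* with *Ptch1* ran from 0.09 to 0.83, that of *Ihh* with *Hhip* from -0.55 to 0.53 and that of the fibroblast level with *Ptch1* from -0.28 to 0.42. With a tumor left out, medians of the lists ran from 0.60 to 1.71 for ligand release and from 0.36 to 1.12 for targets. Ligand release had 3 tested genes, but 4 where a *Dnmt3a*+/+ tumor was left out, as *Dhh* was then tested too. Those 4 genes gave the medians of 1.32 to 1.71, and the 3 genes gave 0.60 to 1.08 where a *Dnmt3a*+/Δ tumor was left out. The median of the cytoplasmic genes was 0.33 with library sizes alone. That scaling gave 1687 genes higher and 288 lower at an unadjusted p under 0.05, against 922 and 822. Per kb of the longest transcript, *Ptch1* had a mean of 1.59 CPM (1.16 per kb of exon) and *Smo* 8.27 (5.56). Beyond that change in the genes tested, the causes were not tested.

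Replicate numbers did not pair the tumors: same-numbered tumors correlated at 0.57, 0.07 and -0.04 in their deviations from the group means, and 1 of the 3 *Dnmt3a*+/+ tumors correlated best with its own number. With the replicate number as a block, 0 genes were called, 814 were higher and 1071 lower at an unadjusted p under 0.05, and *Shh* was at -1.60. By edgeR's unadjusted test, the 2 Hedgehog genes under 0.05 were then *Ptch1* (log2 fold change 0.82) and *Smo* (0.44), and *Foxl1* (2.42) was no longer among them. Depth limited *Hhip* and *Dhh*, and *Gli1* rested on at most 31 counts in a tumor and *Gli2* on at most 68.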
